A study of Mus musculus and Homo sapiens with 10 samples.

Results

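ERV1 subfamilies were taken as every repeat subfamily of the mouse table annotated as LTR class and ERV1 family, which gave 147 of 1196 subfamilies, or 147 of the 680 rows of the LTR class. By name, 44 were rodent-named (RLTR, Mu or MM), 84 carried older mammalian names (MER or LTR), and 19 carried other names (LTRIS, MLTR, RMER, RodERV21-int, HUERS-P3b-int and LTR72_RN). The classes were set by the start of the name, so the older mammalian class also holds MERV1_I-int and MERV1_LTR. Other names include some with a mouse or rat suffix, such as LTRIS_Mus and LTR72_RN. Of the 147 subfamilies, 30 were internal parts of proviruses and 117 were LTRs. RNA-seq was performed on E14 mESCs, an embryonic stem cell line, grown without feeders in 2i media, a serum-free medium with LIF and inhibitors of the ERK and GSK3 pathways. In 4 cultures, named 10, 11, 35B and 35C in the labels (replicates 1 to 4), cells received vitC (vitamin C) at 100 µg/ml for 24 h, and each had an untreated control from the same culture name. All 8 libraries came from this 1 wild-type cell line, and nothing in the labels says whether the cultures were independent thaws or clones. P-values of unpaired fits therefore measure the spread between these cultures. Where the culture pair was a block, p-values measure the spread of the vitC response between these cultures. The comparison asks whether TE (transposable element) transcripts respond to vitC, which serves Fe(II)- and 2-oxoglutarate-dependent dioxygenases such as the TET and KDM enzymes as a cofactor.

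ERV1 is the class of endogenous retroviruses related to gammaretroviruses, the genus of murine leukaemia virus (MuLV). An intact provirus consists of an internal part that encodes the Gag, Pol and Env proteins and of a flanking pair of LTRs, which hold the promoter and the polyadenylation signal, and recombination between the LTRs often leaves a solitary LTR behind. In mESCs, proviruses of this class are silenced by KRAB zinc finger proteins such as ZFP809, which recruit TRIM28 and the H3K9 methyltransferase SETDB1. Rodent-named subfamilies include proviruses that still encode proteins, whereas MER and LTR names were mostly given to older insertions shared among mammals.

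Counts of a subfamily are summed over all of its annotated copies and were not divided by length, so levels are compared between libraries and not between subfamilies. CPM is a subfamily's expected count scaled by the total subfamily count of its library and a TMM factor. ERV1 held between 25004 and 51984 expected counts per library, which was 3.46% to 5.12% of the counts of LINE, SINE, LTR and DNA elements, and between 33.2% and 58.7% of these counts came from uniquely mapped reads. Counts of rRNA repeats took 42.0% to 51.5% of all subfamily counts in replicates 1 and 2 and 60.0% to 63.1% in replicates 3 and 4, and their part in differences between the cultures was not tested. The pluripotency genes Pou5f1, Nanog and Esrrb had mean variance-stabilised values between 11.07 and 12.41 in both groups, and the 4 feeder markers lay between the lowest value of the table (6.13) and 7.65. Of these, Col1a1 and Twist1 stayed below 6.6, Col1a2 was at 6.79 to 7.36 in replicates 1 and 2 and at the lowest value in replicates 3 and 4, and Thy1 was at 6.55 to 6.70 in replicates 1 and 2 and 7.36 to 7.65 in replicates 3 and 4, so that the latter pair of markers separated by culture, and their part in differences between the cultures was not tested. A filter on low counts kept 92 of the 147 ERV1 subfamilies, among them 40 rodent-named, 35 older mammalian and 17 with other names. The 55 not tested comprised 4, 49 and 2 of these classes, had at most 21 counts in any library (5 had none), and together held 0.351% of ERV1 counts.

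With each treated culture compared with its own control, a small set of rodent-named ERV1 subfamilies was modestly higher with vitC, and unpaired edgeR called none. In the unpaired edgeR fit, no ERV1 subfamily was higher or lower at an adjusted p under 0.05, where 8 of 902 subfamilies (0.887%) were higher and 0 (0%) lower. Without adjustment (p under 0.05) the same fit gave 14 ERV1 subfamilies higher (15.2% of those tested, against 8.54% of all subfamilies) and 3 lower (against 2.77%). Of the 14, 13 were rodent-named and the remaining one was MER52-int. DESeq2, which gave an adjusted p for 490 subfamilies including 40 ERV1, put 3 ERV1 subfamilies higher (MURVY-int, RLTR1B and RLTR6-int, against 3.88% of all) and 0 lower (against 0.204%). With the culture pair as a block in edgeR, 7 ERV1 subfamilies rose (7.61% of those tested, against 4.32% of all) and 1 fell (against 0.333%). At an unadjusted p under 0.05 the block fit gave 17 higher (18.5%, against 11% of all) and 4 lower (against 7.43%). The 7 that rose were MURVY-int, MURVY-LTR, RLTR1B-int, RLTR1B, MMERGLN-int, RLTR6-int and RLTR41, all rodent-named, and MER34A1 fell. Beside them, 20 ERV1 subfamilies (21.7%) were higher with vitC in all 4 pairs, against 13.2% of all subfamilies, and 5 (5.43%) were lower in all 4 pairs, against 13%. Below, adjusted p-values are from edgeR unless another tool is named.

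**Figure D1:**
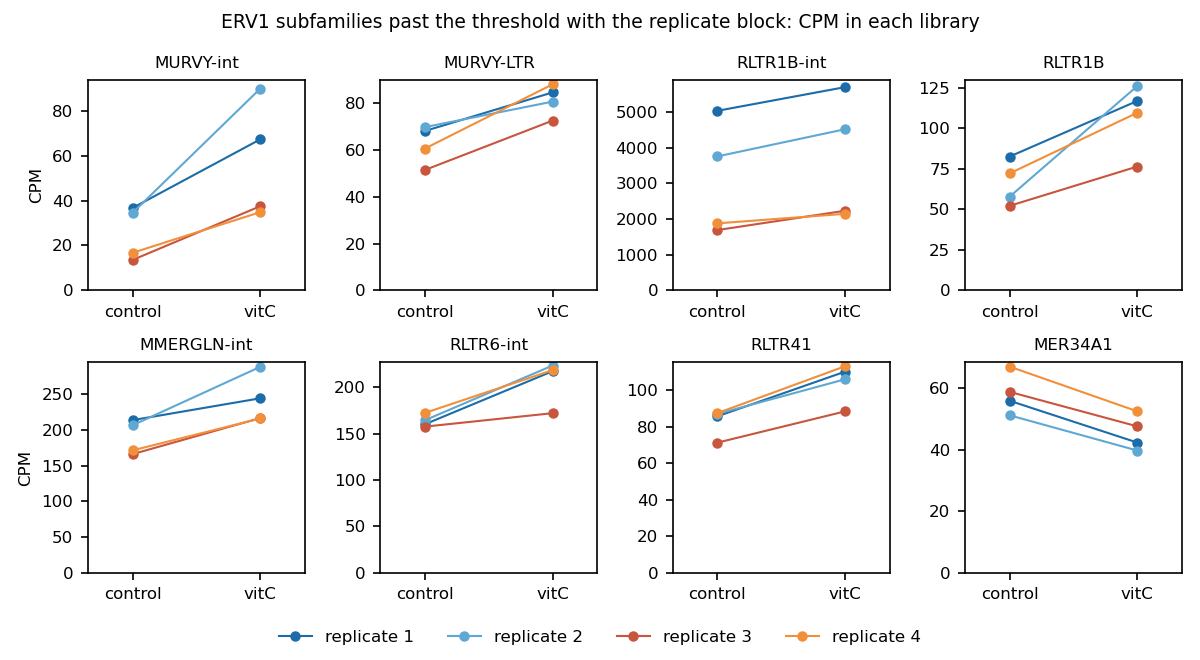
CPM of the 8 ERV1 subfamilies past the threshold with the replicate block, in control and vitC libraries, with a line joining the control and vitC libraries of each culture and every vertical axis starting at 0. All 4 lines go up in 7 panels and down for MER34A1, and in the panel of RLTR1B-int replicates 1 and 2 lie above replicates 3 and 4 by more than the difference within any pair.

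MURVY-int, the internal part of a retrovirus-like repeat amplified on the mouse Y chromosome, had the largest log2 fold change of the ERV1 subfamilies tested. Control libraries measured 36.7, 34.5, 13.6 and 16.7 CPM in replicates 1 to 4, and vitC libraries 67.2, 89.8, 37.5 and 34.8 CPM. Each vitC library was at least 1.83-fold above its own control, but the lower vitC libraries, replicates 3 and 4, lay at the level of the higher controls, replicates 1 and 2. Means were 25.4 ± 11.9 and 57.3 ± 26.2 CPM (SD, n = 4), a log2 fold change of 1.20 (SE 0.39, adjusted p = 0.258). Within pairs the log2 fold change was 1.17 (SE 0.12, adjusted p = 0.000889), it stayed past the threshold without any one pair (highest adjusted p = 0.0142), and DESeq2 without the block gave an adjusted p of 0.0484. Of its counts, 1.68% came from uniquely mapped reads, the lowest share among rodent-named internal parts, so reads of its 544 copies and of related elements cannot be told apart and no test on unique counts was possible.

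Its LTR rose as well, by less. MURVY-LTR measured 68.1, 69.7, 51.5 and 60.6 CPM in the controls and 84.6, 80.6, 72.5 and 88.0 CPM with vitC. All vitC libraries were above all controls. Its log2 fold change was 0.38 (SE 0.11, adjusted p = 0.169; with the block 0.38, SE 0.08, adjusted p = 0.0346), and 0.48 on uniquely mapped counts (SE 0.16, adjusted p = 0.627), which made up 32.5% of its counts. Without replicate 1, 3 or 4 the block fit gave adjusted p-values of 0.0721, 0.0886 and 0.142.

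Y-linked genes were read beside MURVY-int. Of the 7 listed, none passed the unpaired limma test on variance-stabilised values (a log2-like scale), and with the block Kdm5d, a histone demethylase gene, rose by 0.43 (SE 0.17 unpaired, block adjusted p = 0.000465, limma) and Usp9y, a deubiquitinase gene, by 0.26 (SE 0.08 unpaired, block adjusted p = 0.0162, limma), against 6.36% of 14631 genes higher. Both were close to the lowest value of the table in the controls (6.83 and 6.30). Ddx3y, Eif2s3y, Uty, Zfy1 and Zfy2 had differences between -0.06 and 0.07 and did not pass.

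RLTR1B and its internal part, RLTR1B-int, both rose with the block, at different sizes. RLTR1B measured 82.5, 57.8, 52.1 and 72.1 CPM in the controls and 117, 126, 76.4 and 110 CPM with vitC. Every vitC library was above its own control, and only the vitC library of replicate 3 lay below the highest control. The log2 fold change was 0.70 (SE 0.18, adjusted p = 0.136; with the block 0.70, SE 0.11, adjusted p = 0.00987; DESeq2 adjusted p = 0.0144), and without the vitC library of replicate 3 the unpaired fit also passed (0.83, adjusted p = 0.0388). Without replicate 4 the block fit gave an adjusted p of 0.0787. On uniquely mapped counts, 14.6% of the total, the log2 fold change was 0.98 (SE 0.19, adjusted p = 0.228; with the block adjusted p = 0.0399).

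RLTR1B-int was one of the 2 subfamilies that dominated ERV1, with 14.3% to 37.2% of ERV1 counts. It measured 5032, 3754, 1690 and 1878 CPM in the controls and 5695, 4515, 2231 and 2146 CPM with vitC. Both libraries of replicates 1 and 2 exceeded those of replicates 3 and 4 in either group, whereas vitC over control was only 1.13 to 1.32 in each pair. The log2 fold change was 0.24 (SE 0.42, adjusted p = 0.833; with the block 0.26, SE 0.05, adjusted p = 0.0346), and it turned to -0.06 without the vitC library of replicate 1. With the block, the adjusted p was 0.133 without replicate 2, 0.111 without replicate 3 and 0.105 without replicate 4. Uniquely mapped reads gave 5.94% of its counts, with a log2 fold change of 0.31 (SE 0.37, adjusted p = 0.854).

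MMERGLN-int, the internal part of the GLN family of murine retroviruses, measured 214, 207, 166 and 171 CPM in the controls and 244, 288, 217 and 216 CPM with vitC. All vitC libraries were above all controls, with replicates 1 and 2 again higher than 3 and 4. The log2 fold change was 0.35 (SE 0.12, adjusted p = 0.260; with the block 0.35, SE 0.06, adjusted p = 0.0140), and without replicate 2 or 4 the block fit gave adjusted p-values of 0.0638 and 0.0917. Its uniquely mapped counts, 5.26% of the total, showed a log2 fold change of 0.07 (SE 0.26, adjusted p = 0.964). The matching LTR, MMERGLN_LTR, measured 40.2, 55.1, 20.9 and 26.5 CPM in the controls and 63.0, 52.9, 36.5 and 46.6 CPM with vitC. It was higher with vitC in 3 of 4 pairs, did not pass (log2 fold change 0.49, SE 0.28, adjusted p = 0.537; with the block 0.136), and passed with the block only without replicate 2 (0.0157).

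RLTR6-int measured 160, 164, 157 and 172 CPM in the controls and 217, 223, 172 and 218 CPM with vitC. The vitC library of replicate 3 was within the range of the controls, while the other 3 vitC libraries were above it. The log2 fold change was 0.35 (SE 0.08, adjusted p = 0.124; with the block 0.34, SE 0.06, adjusted p = 0.0242; DESeq2 adjusted p = 0.0389), and without the vitC library of replicate 3 the unpaired value was 0.43 (adjusted p = 0.00574). Without replicate 1, 2 or 4 the block fit gave adjusted p-values of 0.0671, 0.111 and 0.142. On uniquely mapped counts, 12.4% of the total, the log2 fold change was -0.00 (SE 0.13, adjusted p = 0.997), near 0. RLTR6_Mm and RLTR6B_Mm are LTRs that share the name, and were added after their values were seen. The rule for named subfamilies also pairs RLTR6 LTRs with MMVL30-int, which had a log2 fold change of -0.08 (SE 0.26). For RLTR6_Mm the log2 fold change was 0.29 (SE 0.18, adjusted p = 0.580, with the block 0.360). For RLTR6B_Mm it was 0.48 (SE 0.20, adjusted p = 0.403, with the block 0.146).

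RLTR41, an LTR with 1121 copies, measured 85.7, 87.0, 71.3 and 87.4 CPM in the controls and 110, 106, 88.4 and 113 CPM with vitC. All vitC libraries were above all controls, although the vitC library of replicate 3 exceeded the highest control by a narrow margin. RLTR41 had a log2 fold change of 0.34 (SE 0.10, adjusted p = 0.192; with the block 0.33, SE 0.06, adjusted p = 0.0160) and 0.50 on uniquely mapped counts (SE 0.13, adjusted p = 0.427), which were 33.7% of the total. Without replicate 1 or 4 the block fit gave adjusted p-values of 0.0671 and 0.0934.

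MER34A1, an older mammalian LTR, went the other way. Its level was 55.9, 51.1, 58.8 and 66.9 CPM in the controls and 42.3, 39.7, 47.6 and 52.4 CPM with vitC. Each vitC library was below its own control, by a similar ratio in every pair (0.757 to 0.810), but the groups overlapped. Its log2 fold change was -0.36 (SE 0.12, adjusted p = 0.255; with the block -0.36, SE 0.07, adjusted p = 0.0346), and leaving out any one pair ended the call (block adjusted p between 0.0692 and 0.155). On uniquely mapped counts it was -0.43 (SE 0.17, adjusted p = 0.627).

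MuLV-int and RLTR4, the internal parts and LTR of endogenous murine leukaemia viruses, did not pass in any fit. By qRT-PCR, the paper reported upregulation of RLTR4 with vitC in wild-type mESCs, and counted RLTR4/MuLV among families that changed less than L1Tf and L1Gf. That assay reads its own primer targets, whereas the counts here are summed over all annotated copies. MuLV-int measured 25.7, 23.6, 25.7 and 26.0 CPM in the controls and 31.9, 23.1, 28.3 and 23.1 CPM with vitC, so that vitC libraries lay on both sides of the controls. Its log2 fold change was 0.07 (SE 0.13, adjusted p = 0.838; with the block 0.784), and -0.15 on uniquely mapped counts (SE 0.18, adjusted p = 0.854), which made up 62.8% of the total. RLTR4_MM-int measured 170, 167, 163 and 162 CPM in the controls and 177, 202, 177 and 187 CPM with vitC. All vitC libraries were above all controls, by a log2 fold change of 0.17 (SE 0.06, adjusted p = 0.278; with the block 0.154), but uniquely mapped counts, 15.6% of the total, gave -0.14 (SE 0.10, adjusted p = 0.764). The LTR, RLTR4_Mm, averaged 33.8 ± 6.26 and 33.5 ± 6.09 CPM (SD, n = 4) in control and vitC libraries, with a log2 fold change of -0.01 (SE 0.17, adjusted p = 0.995).

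MMVL30-int, the internal part of VL30 elements, which lack functional retroviral genes, held 21.9% to 51.2% of ERV1 counts. It measured 4384, 4357, 4602 and 6733 CPM in the controls and 3971, 2830, 5215 and 6928 CPM with vitC. VitC libraries were lower in replicates 1 and 2 and higher in replicates 3 and 4, with log2 fold changes of -0.35 (SE 0.16) and 0.11 (SE 0.22) in the respective sets. Across all 8 libraries the log2 fold change was -0.08 (SE 0.26, adjusted p = 0.913), and the difference between the sets had an unadjusted p of 0.178 (adjusted p = 0.991). With the block, this difference was 0.49 (SE 0.17), with an unadjusted p of 0.0228 and an adjusted p of 0.904 (edgeR). Uniquely mapped reads gave 94.8% of its counts, far more than for RLTR1B-int. LTRIS2, an LTR with 1423 copies, measured 891, 776, 369 and 578 CPM in the controls and 1112, 995, 463 and 498 CPM with vitC. Its log2 fold change was 0.23 (SE 0.34, adjusted p = 0.809; with the block 0.300), and on uniquely mapped counts (9.68% of the total) 0.46, where the block fit passed (adjusted p = 0.0435). The other high-count subfamilies, MER34B-int, RMER5, MLTR14 and LTRIS_Mus, had log2 fold changes between -0.04 and 0.05.

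**Figure D2:**
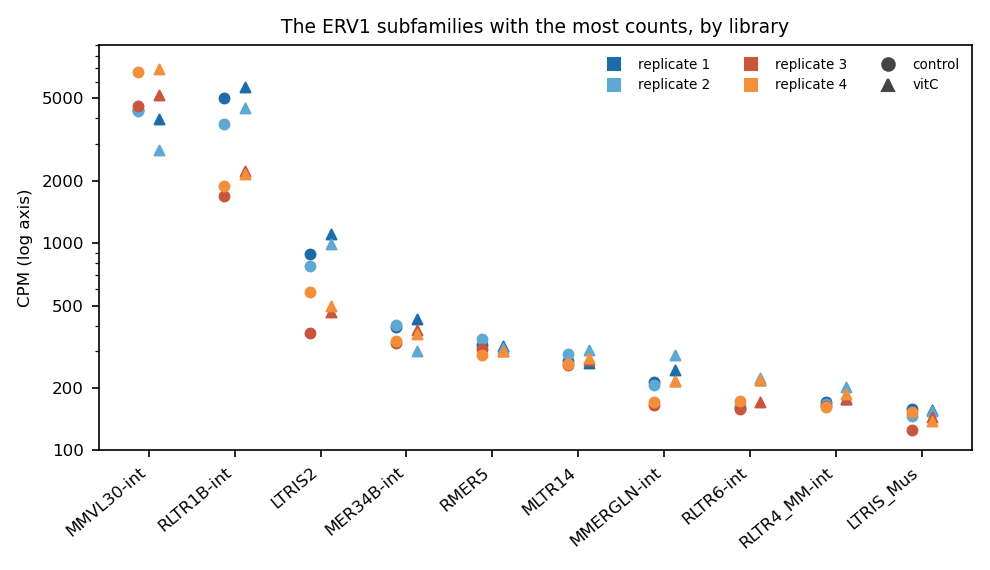
CPM on a log axis of the 10 ERV1 subfamilies with the most counts, one point per library, coloured by culture, with circles for controls and triangles for vitC. The points of RLTR1B-int, LTRIS2 and, by a narrow margin, RMER5 separate by culture, with replicates 1 and 2 above 3 and 4. MMVL30-int shows the opposite order. Counts were not divided by length.

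Among subfamilies with the same direction in all 4 pairs, the largest rises that did not pass were in low-count rows. RLTR5_Mm measured 10.0, 6.97, 9.04 and 7.79 CPM in the controls and 22.5, 23.1, 10.6 and 7.83 CPM with vitC. The vitC libraries of replicates 1 and 2 were well above all controls, and that of replicate 4 was within their range. Its log2 fold change was 0.98 (SE 0.34, adjusted p = 0.295; with the block 0.114), with 1.42 (SE 0.22, adjusted p = 0.0256) in replicates 1 and 2 alone and 0.13 (SE 0.30, adjusted p = 0.968) in replicates 3 and 4. MER52-int, at 2.82 ± 0.94 and 5.10 ± 1.21 CPM (SD, n = 4), had a log2 fold change of 0.87 (SE 0.28, adjusted p = 0.255; with the block 0.143). RLTR48C, at 5.30 ± 0.59 and 7.59 ± 0.69 CPM (SD, n = 4), had all vitC libraries above all controls and a log2 fold change of 0.51 (SE 0.17, adjusted p = 0.358; with the block 0.221).

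The lower values were smaller. RLTR30D_RN, a rodent-named LTR with 64 copies, measured 26.0, 28.6, 36.2 and 34.9 CPM in the controls and 21.6, 20.8, 28.3 and 22.3 CPM with vitC. It was lower in every pair, with a log2 fold change of -0.45 (SE 0.15, adjusted p = 0.260; with the block 0.0748). LTR65, LTR72_RN and MER31B were also lower in every pair, at log2 fold changes of -0.36, -0.21 and -0.19, and did not pass (block adjusted p between 0.226 and 0.296). Among them, LTR72_RN was the 1 tested ERV1 subfamily that had all vitC libraries below all controls (against 2.33% of all subfamilies). The margin was narrow, with 51.9 CPM in the vitC library of replicate 3 and 52.1 CPM in its control. The 67 tested subfamilies not named by the rule for named subfamilies had log2 fold changes between -0.42 and 0.69, and none passed in either fit (lowest adjusted p 0.366 unpaired and 0.0532 with the block).

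The log2 fold changes of rodent-named and older mammalian subfamilies were set side by side as a description, without a test. The median was 0.16 in the 40 rodent-named subfamilies tested (range -0.45 to 1.20), 0.01 in the 35 older mammalian ones (-0.42 to 0.87) and 0.05 in the 17 with other names, against -0.01 over all 902. Among the other names, the 8 LTRIS subfamilies tested had a median of 0.15, near that of the rodent-named. Of these 8, 7 were above 0, 0 were higher in all 4 pairs and 0 rose with the block. Without the MERV1 names, the older mammalian median was 0.01 as well (33 tested). Of the rodent-named, 32 (80%) were above 0 and 18 (45.0%) were higher in all 4 pairs. Of the older mammalian ones, 19 (54.3%) were above 0 and 2 (5.71%) were higher in all pairs. Of the 17 with other names, 12 (70.6%) were above 0 and 0 were higher in all pairs. Over all 902 subfamilies, 48.7% were above 0 and 13.2% were higher in all pairs. All 7 that rose with the block were rodent-named (17.5% of those tested), as were all 7 subfamilies in which every vitC library exceeded every control (7.61% of ERV1, against 4.99% of all): MMERGLN-int, MURVY-LTR, RLTR41, RLTR4_MM-int, RLTR48C, RLTR14-int and RLTR30E_MM. Within rodent names, the 10 internal parts had a median of 0.20 with 4 risers, and the 30 LTRs tested a median of 0.13 with 3. On uniquely mapped counts this order turned, with a median of 0.03 for 8 internal parts and 0.21 for 19 LTRs. For comparison, the 253 ERVK subfamilies tested had a median of 0.10, and 70.8% were above 0. Of these 253, 68 were higher in all 4 pairs and 26 rose with the block. The 92 ERV1 subfamilies tested had a median of 0.07, with 68.5% above 0, 20 higher in all 4 pairs and 7 risers. The rise was thus not particular to ERV1. Older mammalian subfamilies had fewer counts than rodent-named ones (median of mean CPM 10.5 against 36.1) and larger standard errors (median 0.221 against 0.144). A change of a given size was therefore harder to detect in them. Subfamilies with other names were close to the rodent-named in both (median of mean CPM 41.5, median standard error 0.140). Scaling to the aligned library size moved the median of all subfamilies to 0.12, and those of rodent-named and older mammalian subfamilies to 0.29 and 0.13.

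**Figure D3:**
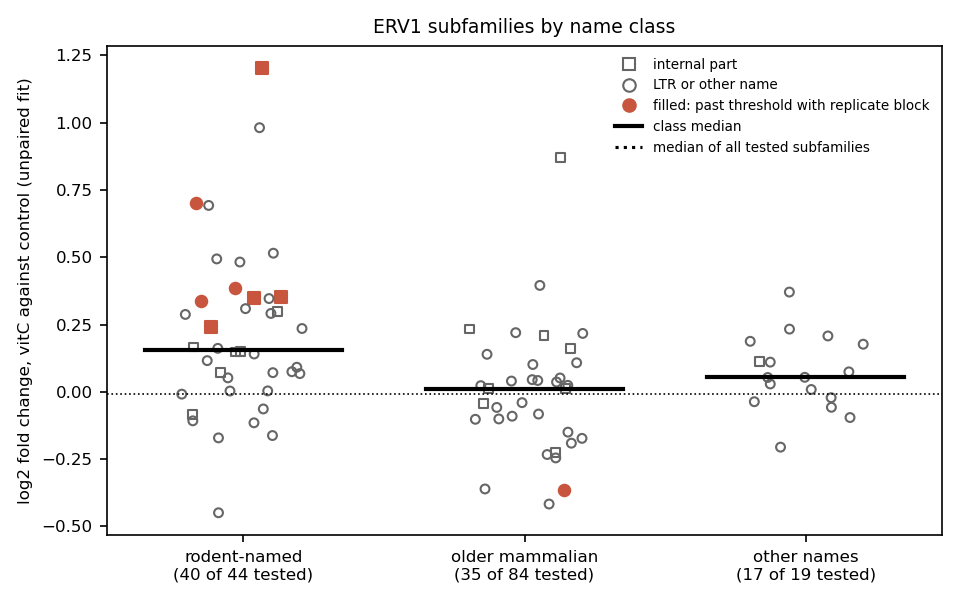
Log2 fold change of each tested ERV1 subfamily (unpaired fit) by name class, with squares for internal parts, circles for LTRs and other names, filled symbols for those past the threshold with the replicate block, a bar for the class median and a dotted line for the median of all tested subfamilies. The rodent-named median is 0.16, that of the other names 0.05, and that of the older mammalian names 0.01, near the dotted line at -0.01.

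The summed share of rodent-named subfamilies depended on the 2 dominant ones. With all 44 it had ratios of vitC over control of 1.07, 1.00, 1.16 and 1.07 in replicates 1 to 4. Without MMVL30-int and RLTR1B-int, it was higher with vitC in every pair, and went from 0.624% to 0.745% of LINE, SINE, LTR and DNA counts in replicate 1, from 0.640% to 0.798% in replicate 2, from 0.556% to 0.629% in replicate 3 and from 0.555% to 0.643% in replicate 4. These are ratios of 1.13 to 1.25. The older mammalian share had ratios of 1.04, 0.945, 1.08 and 0.940 in replicates 1 to 4, on both sides of 1. All ERV1 counts together had ratios between 1.02 and 1.14.

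Uniquely mapped counts, which do not depend on the assignment of multi-mapping reads, could be tested for 64 ERV1 subfamilies. None was higher or lower at an adjusted p under 0.05 in edgeR (0 of 742 subfamilies, 0%), and without adjustment 4 were higher (RLTR1B, RLTR41, MURVY-LTR and RLTR30E_MM) and 3 lower (RLTR14, MERV1_LTR and MER34A1), against 4.18% and 3.23% of all. With the block 2 rose, RLTR1B and LTRIS2 (against 0.404% of all), and 0 fell (against 0.135%). The sign was the same on both kinds of count in 49 of the 64 subfamilies. It was also the same in 6 of the 7 testable ones past the threshold with the block, with RLTR6-int as the exception. MMERGLN-int kept its sign but was near 0 on unique counts (0.07, SE 0.26). Uniquely mapped reads are part of the expected counts, and the 7 were picked on expected counts, so shared signs were partly built in. Medians on unique counts were 0.14 for rodent-named and 0.04 for older mammalian subfamilies.

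**Figure D4:**
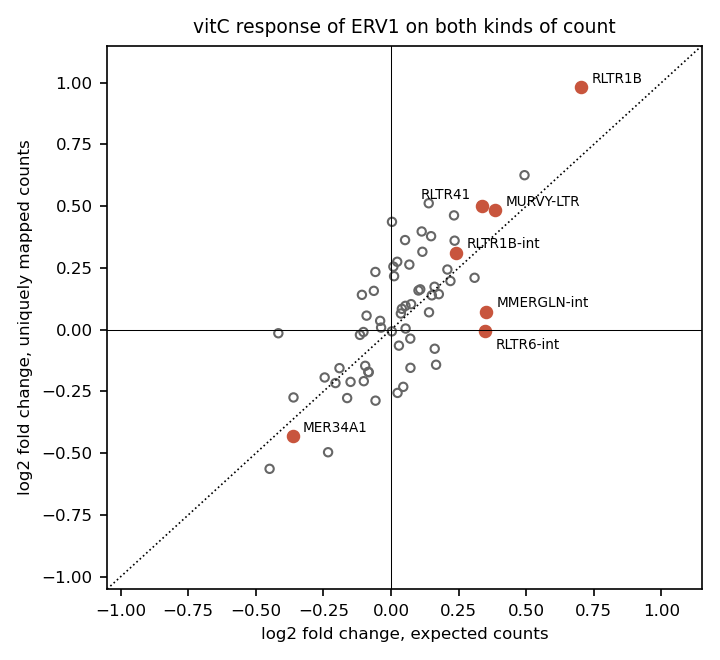
Log2 fold change with vitC of the 64 ERV1 subfamilies tested on both kinds of count, with expected counts on the horizontal axis, uniquely mapped counts on the vertical axis and the dotted line marking equal values; filled points passed with the replicate block. RLTR1B, RLTR41 and MURVY-LTR lie above the line, while MMERGLN-int and RLTR6-int lie near 0 on unique counts.

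Several subfamilies separated by culture. In 13 ERV1 subfamilies (14.1% of those tested, against 7.54% of all) all 4 libraries of replicates 1 and 2 were above all 4 of replicates 3 and 4, and in 3 (3.26%, against 4.77%) they were below. RLTR1B-int was 2.46-fold, MuRRS4-int 1.88-fold and LTRIS2 1.76-fold higher in the controls of replicates 1 and 2, and MMVL30-int was among the 3 that were lower (0.771-fold). MURVY-int was 2.35-fold higher in the controls of replicates 1 and 2, and its log2 fold changes with vitC were 1.16 (SE 0.16) and 1.25 (SE 0.19) in the respective sets (difference 0.10, SE 0.26, adjusted p = 0.991). No ERV1 subfamily differed in response between the sets at an adjusted p under 0.05 in edgeR (0 of 902, 0%, also 0 with the block), and 4 did without adjustment (against 4.1% of all), of which RLTR5_Mm had the largest difference (-1.30, SE 0.35, adjusted p = 0.991). The labels do not say what else distinguished cultures 10 and 11 from 35B and 35C, so culture, library preparation and rRNA content cannot be told apart.

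Lists of genes that silence, restrict or receive gammaretroviruses or derive from them, of dioxygenases and of the Y-linked genes above were read in the same libraries. Of these 59 genes, 51 were tested, none passed unpaired with limma (against 0.321% of genes higher and 0.0205% lower), and with the block 8 were higher, among them the Y-linked Kdm5d and Usp9y, and 3 lower (against 6.36% and 4.44%). In the silencing list of 26 genes, 4 rose with the block: Atf7ip, the partner of SETDB1, from 9.44 ± 0.25 to 10.2 ± 0.32 (SD, n = 4; difference 0.79, SE 0.17, adjusted p = 0.112, block 4.60e-10, limma), Suv39h1 by 0.24, Setdb1 by 0.23 and Ehmt1 by 0.14. Cbx3, which encodes a heterochromatin protein, fell by 0.18 and Pa2g4 by 0.13. Trim28 and Zfp809 had differences of -0.01 and 0.16 and did not pass. Among 8 dioxygenase genes, Kdm3b was higher by 0.21 and Tet2 fell by 0.26 with the block (adjusted p = 0.000647 and 0.00492, limma). Slc7a1, the receptor of ecotropic MuLV, rose by 0.24 with the block (adjusted p = 0.000344, limma), whereas the receptors Xpr1, Slc20a1 and Slc20a2 had differences between -0.02 and 0.03. None of the 7 tested restriction genes passed, including Apobec3 (-0.16, block adjusted p = 0.0525, limma) and Samhd1 (-0.16, block adjusted p = 0.0526, limma). Fv1, the retroviral restriction gene, was at the lowest value of the table in all controls and in 2 of the 4 vitC libraries. Pluripotency genes moved within pairs too, with Tdgf1, Nanog, Zfp42 and Pou5f1 lower and Tfcp2l1 higher of 8 listed, and their part in the ERV1 differences was not tested. Of the primed, endoderm, feeder and 2-cell-like marker lists (4 genes each), Pdgfra (0.23, block adjusted p = 0.0260, limma) and Zscan4d (0.24, block adjusted p = 0.0331, limma) were higher with the block, both at values under 7.1, and their part was not tested either.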

How the data were processed

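RNA-seq libraries of E14 mESCs (4 control, 4 vitC) were directional. The study's methods give rRNA depletion before library construction, and the labels name that or an mRNA isolation kit without saying which for each library. The authors mapped reads to mm10 and counted them per repeat subfamily with SQuIRE (version not given in the sources used here); the submitters' processing notes also name Trim Galore, HISAT2 and DESeq2. The deposited table holds expected counts (multi-mapping reads shared among copies by expectation-maximisation) and whole-number counts of uniquely mapped and of aligned reads. The gene table deposited by the authors holds log2-like values after a variance-stabilising transformation. A further per-sample column of the repeat table (1, a confidence value) and the human libraries were not used here. Subfamily totals were 2321035 to 5124929 expected counts per library, and the aligned library size 4720998 to 9333042; no copy of a subfamily was resolved.

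Expected counts were rounded to whole numbers, filtered with filterByExpr and scaled by TMM, and tested over all subfamilies with edgeR 4.0.16 quasi-likelihood F-tests in R 4.3.3, two-sided, with Benjamini-Hochberg adjustment over all tested subfamilies and a threshold of 0.05. Genes that exceeded the table's minimum in 4 or more libraries were tested with limma 3.58.1 (trend). The unpaired fit was the main one. Alternatives were DESeq2 1.42.0, RLE, aligned library size, TE classes only, no filter, unique counts, aligned reads, each library left out, each culture set alone, and the replicate block. Replicates carry a shared culture name in the labels, and deviations from the group means correlated within each pair (r = 0.23, 0.31, 0.30 and 0.56 across subfamilies, which are not independent). Libraries of different cultures in the same set also correlated (r up to 0.45, control of replicate 2 with vitC of replicate 1, above the values of both own pairs), so these correlations do not separate pairing by culture from a difference between the sets. As the labels share culture names, block values are printed where they change a call. Replicates of a group differed beyond counting noise (chi-square over degrees of freedom at least 5.34). The scripts were tested on simulated data. Members and lists were chosen with earlier results of these data known. Named subfamilies were those past the threshold in either fit, MuLV-int, MURVY-int and RLTR4 rows, the 10 with the most counts, the 5 largest rises and falls with the same direction in all 4 pairs, and the LTR or internal partners of the first 2 kinds with exactly the same name stem. Figures were drawn with matplotlib 3.10.9.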

Additional observations from a re-analysis of the deposited data

Results flagged for a closer look

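In 50 groups of 4 libraries (25 named subfamilies in 2 conditions), the highest or lowest library was tested for standing apart from the other 3 with Dixon's ratio, where chance alone gives about 1 in 20, and 4 groups did. MMVL30-int measured 6733 CPM in the control of replicate 4, above 4357 to 4602 CPM in the other controls, and the vitC library of the same culture was also the highest of its group. RLTR6-int measured 172 CPM in the vitC library of replicate 3, below 217 to 223 CPM in the other vitC libraries. RLTR41 measured 71.3 CPM in the control of replicate 3, below 85.7 to 87.4 CPM in the other controls. MuLV-int measured 23.6 CPM in the control of replicate 2, below 25.7 to 26.0 CPM in the others. No named subfamily differed in its vitC response between the culture sets at an adjusted p under 0.05.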

How the results depend on the processing

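The count of ERV1 subfamilies higher with vitC (0 in the unpaired edgeR fit) was 3 with DESeq2, 3 in replicates 1 and 2 alone, 0 in replicates 3 and 4 alone, and 0 to 2 when single libraries were left out (2 without the vitC library of replicate 3, RLTR6-int and RLTR1B). With the replicate block, which follows the pairing by culture, it was 7, and with added changes chosen after seeing the data it was 2 on unique counts, 8 in TE classes only, 3 with DESeq2, 10 on aligned reads, and 4, 5, 5 and 2 without replicates 1 to 4. The count lower (0 unpaired) was 1 with the block, 1 with the block in TE classes only and 2 with the block on aligned reads. The other alternatives left both counts, and the count differing between culture sets, at 0. The block gave 11 of the listed genes past the threshold, against 0 in the other limma fits. The causes were not tested.

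Directions turned for 10 of the 25 named subfamilies. On unique counts the log2 fold change was 0.0082 for RMER5, -0.0035 for RLTR6-int, -0.14 for RLTR4_MM-int, -0.065 for LTRIS_Mus and -0.15 for MuLV-int, and with the block added 0.011, -0.012, -0.14, -0.079 and -0.14. With the aligned library size it was 0.081 for RMER5 and 0.13 for RLTR4_Mm. Replicates 1 and 2 alone gave -0.12 for MER34B-int, and replicates 3 and 4 alone 0.11 for MMVL30-int, 0.024 for RMER5, 0.059 for RLTR4_Mm and -0.0071 for MuLV-int. With the block, MER34B-int was at -0.0019 in TE classes only, -0.0001 with DESeq2, -0.0044 on aligned reads and -0.029, -0.061 and -0.021 without replicates 1, 3 and 4. Also with the block, MMVL30-int was at 0.024 and RMER5 at 0.0022 without replicate 2, LTRIS_Mus at -0.026 without replicate 3, and RLTR4_Mm at 0.21 and MuLV-int at -0.015 without replicate 1. Leaving out single libraries gave -0.33 to 0.098 for MMVL30-int, -0.060 to 0.58 for RLTR1B-int, -0.0015 to 0.42 for LTRIS2, -0.072 to 0.099 for MER34B-int, -0.081 to 0.0088 for RMER5, -0.038 to 0.075 for LTRIS_Mus, -0.14 to 0.13 for RLTR4_Mm and -0.037 to 0.14 for MuLV-int. MURVY-int had too few uniquely mapped reads for a test, and detection limits were not computed.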

Other observations

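Expected counts over the 8 libraries were between 0.664 (MuRRS4-int) and 1.47 (MER89) times the reads that aligned to a tested ERV1 subfamily, with 0.770 for MuLV-int, 1.05 for MURVY-int, 1.06 for RLTR1B-int and 1.08 for RLTR4_MM-int. With aligned reads in place of expected counts and the replicate block, 10 ERV1 subfamilies were higher and 2 lower, LTRIS2 (log2 fold change 0.32, edgeR adjusted p = 0.00168) and RLTR30D_RN (-0.46, adjusted p = 0.0312) among them.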
